A study of Mus musculus with 9 samples.

Results

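Expression of 8 genes used as markers of conventional dendritic cells was followed in interferon-gamma-treated mouse bone marrow-derived macrophages, to ask whether dendritic cell content differed between genotypes. The genes were Clec9a, Batf3, Tcf4, Zbtb46, Flt3, Xcr1, Ccr7 and Cd209a, taken by symbol from the 29763 named genes of the expression table, and all 8 were found. There were 3 groups of 3 libraries: a knockout of the Ndufa4l3-miR147 gene (Ndufa4l3-miR147 KO, also called Nmes1-deficient), a knockout of Ndufa4 (Ndufa4 KO) and wild type (WT). Marrow cells of every group had been grown for 7 days in 30% L929 supernatant, which supplies colony-stimulating factor 1 for macrophage growth, and then stimulated with 40 ng/ml interferon-gamma for 12 h. Polyadenylated RNA was sequenced, and no unstimulated cells are part of the comparison. The labels call the replicates technical, so the p-values below measure only the spread between libraries and not the spread between mice.

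Conventional dendritic cells take up antigen and present it to T cells. Their precursors carry Flt3, the receptor for Flt3 ligand, and the committed lineage expresses the transcription factor Zbtb46. The type 1 subset requires the transcription factors Irf8 and Batf3 and displays the chemokine receptor Xcr1 together with Clec9a, a C-type lectin that recognises actin exposed on dead cells. Tcf4 is best known as the factor that directs plasmacytoid dendritic cells, so it marks another branch of the family. Ccr7 guides mature dendritic cells to lymph nodes, and Cd209a is a mouse relative of the human lectin DC-SIGN found on monocyte-derived and type 2 dendritic cells. Macrophages grown with colony-stimulating factor arise through Csf1r and do not require Flt3.

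Clec9a, Batf3 and Tcf4 were well measured in every library, Xcr1 was low, and Zbtb46, Flt3, Ccr7 and Cd209a were near 0 throughout. Levels are in TPM (transcript abundances scaled to a fixed total per library), which are divided by transcript length and can therefore be compared between genes. Averaged over the 9 libraries, Clec9a lay above 87.9% of the named genes, Batf3 above 83.1%, Tcf4 above 80.8% and Xcr1 above 65.4%. These shares count 8730 named genes that were at 0 in every library. For that reason even the low markers ranked above many genes, Ccr7 above 59.7%, Zbtb46 above 54%, Flt3 above 44.6% and Cd209a above 35.9%. In Ndufa4l3-miR147 KO libraries the order of the levels was Clec9a, Tcf4, Batf3 and Xcr1. In Ndufa4 KO and in WT libraries it was Clec9a, Batf3, Tcf4 and Xcr1, and the ranges of Clec9a and Batf3 overlapped in WT. The ranges of Ccr7 and Zbtb46 overlapped in both knockouts, and those of Flt3 and Cd209a overlapped in Ndufa4l3-miR147 KO and WT. The 4 low genes together summed to 0.390 to 1.08 TPM in Ndufa4l3-miR147 KO libraries, 0.399 to 0.618 TPM in Ndufa4 KO libraries and 0.641 to 0.820 TPM in WT libraries. The data therefore go against the shared name of the set. In these cells Clec9a, Batf3 and Tcf4 were present without more than traces of Zbtb46, the factor of the committed conventional lineage, or of Flt3, the receptor of its precursors. Of 24 macrophage genes listed, 17 lay above the highest Clec9a value in every library, among them Csf1r at 915 to 993 TPM and Emr1 (Adgre1, the F4/80 antigen) at 387 to 436 TPM, while Pecr, Mertk and Mrc1 lay between 2.86 and 41.0 TPM. Of 24 genes shared by conventional dendritic cells 3 did so, and of 19 genes of the type 1 subset 6 did, with Irf8 at 532 to 612 TPM (the genes named here from these lists were chosen after their values were seen). In RNA from a whole culture, fewer cells of a type and less RNA per cell cannot be told apart.

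**Figure D1:**
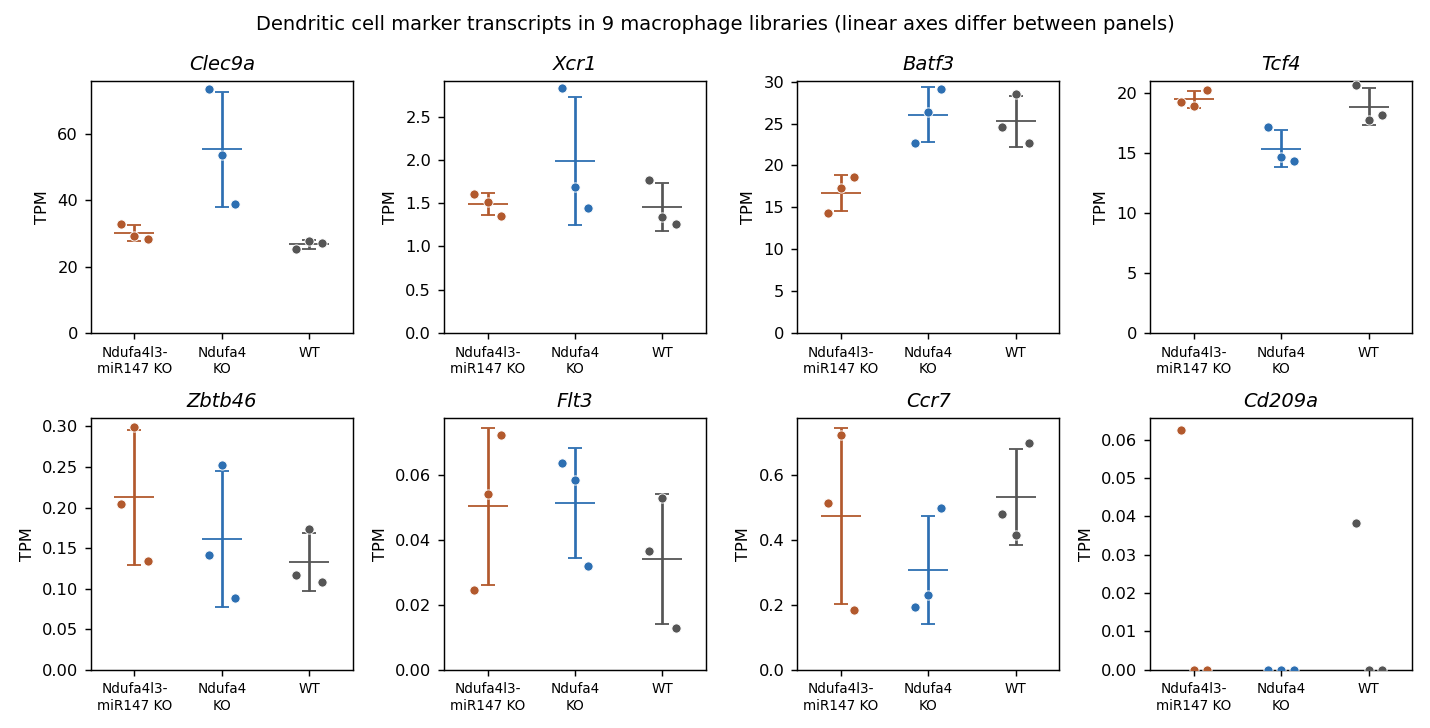
TPM of each of the 8 marker genes in each library, one panel a gene, with Ndufa4l3-miR147 KO, Ndufa4 KO and WT from left to right. Points are libraries, and lines are means with bars of 1 SD (not drawn for Cd209a, which was mostly listed at 0). Clec9a reached 38.7 to 73.4 TPM in Ndufa4 KO, Batf3 was lowest in Ndufa4l3-miR147 KO at 14.3 to 18.6 TPM, and the 4 genes Zbtb46, Flt3, Ccr7 and Cd209a stayed below 1 TPM.

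As a check of the labels, the targeted Ndufa4l3-miR147 gene (listed as AA467197) had 2.90, 2.21 and 4.50 TPM in Ndufa4l3-miR147 KO libraries, against 365, 358 and 355 TPM in WT libraries. Ndufa4 checks nothing, since it was listed at 0 in 3 of 3 Ndufa4 KO libraries and also in 2 of 3 WT libraries. The third Ndufa4 KO library stood apart: its upper quartile was 7.79 TPM, against 9.24 to 9.84 TPM in the other 8 libraries, and its genes tilted towards short transcripts (rho of deviation with transcript length -0.311, against 0.002 to 0.177). The differences of Clec9a that rest on Ndufa4 KO are given below with and without it. Those of most other genes are given with it only.

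Differences were tested on log2(TPM + 1) with limma over 11133 genes that reached 1 TPM in at least 3 of the 9 libraries, and calls were made below an adjusted p of 0.05 (Benjamini-Hochberg over all of them). Clec9a, Batf3, Tcf4 and Xcr1 passed this filter, and 4 of the 8 markers did not. None of the 4 markers tested was called by limma for Ndufa4l3-miR147 KO against WT, where 0.431% of all genes tested were called, 0.243% higher and 0.189% lower (48 genes, and 917 at an unadjusted p under 0.05; of the markers, Batf3 passed that level). For Ndufa4 KO against WT, 1 marker was called (Clec9a, higher), where 8.59% of all genes tested were called, 2.83% higher and 5.76% lower. That comparison had 315 genes called higher and 641 called lower, but 492 and 453 after median-of-ratios scaling, and the median of all genes was -0.076 on the log2 scale. For Ndufa4l3-miR147 KO against Ndufa4 KO, 1 marker was called (Batf3, lower), where 3.24% of all genes tested were called, 2.2% higher and 1.04% lower. Here 245 genes were called higher and 116 lower, but 149 and 153 after median-of-ratios scaling, and the median of all genes was 0.074. With 4 markers tested, these counts are too small to set the markers apart from other genes. Any 2 of these comparisons share the 3 libraries of 1 genotype.

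The surface receptors come first. Clec9a is encoded on chromosome 6 at chr6:129408862-129424763 on the plus strand (ENSMUSG00000046080.17, protein coding, GENCODE M21 on GRCm38), inside a cluster of C-type lectin genes. Clec9a was higher in Ndufa4 KO than in WT cells. It had 73.4, 53.5 and 38.7 TPM in Ndufa4 KO libraries, against 25.3, 27.7 and 27.1 TPM in WT libraries. All 3 Ndufa4 KO libraries lay above all 3 WT libraries, and the Ndufa4 KO libraries spread over a much wider range. Its mean was 55.2 ± 17.4 TPM in Ndufa4 KO and 26.7 ± 1.26 TPM in WT (SD, n = 3 each), a ratio of 2.07. The log2 difference was 0.98 ± 0.19 (SE, 95% interval 0.55 to 1.40, limma adjusted p = 0.0166). Without the third Ndufa4 KO library the difference was 1.20 (limma adjusted p = 0.00115), and without the first it was 0.75 (adjusted p = 0.0163). The call was lost when any 1 WT library was left out (limma adjusted p = 0.0723, 0.0616 and 0.0616 without WT replicates 1, 2 and 3), with the difference still above 0, and in a fit of just the 6 libraries of that comparison (adjusted p = 0.0696).

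In Ndufa4l3-miR147 KO libraries Clec9a had 32.9, 29.0 and 28.2 TPM, a mean of 30.1 ± 2.51 TPM (SD, n = 3). These also lay above the WT libraries without overlap, though by a small margin. The log2 difference from WT was 0.16 ± 0.19 (SE, 95% interval -0.26 to 0.59, limma adjusted p = 0.99), which did not pass the test. This SE pools the spread of all 3 groups, and Ndufa4 KO was by far the widest. In a fit of just the 6 libraries of that comparison the limma adjusted p was 0.262, also not called. The exact permutation test gave p = 0.1, the smallest that 3 libraries against 3 allow. Against Ndufa4 KO, the log2 difference of Ndufa4l3-miR147 KO was -0.81 ± 0.19 (SE, 95% interval -1.24 to -0.39, limma adjusted p = 0.0544). This difference missed the threshold although the groups did not overlap, and it passed with median-of-ratios or quantile scaling and without the third Ndufa4 KO library, with adjusted p down to 0.00344 over these alternatives. In the other 16 of 19 alternatives it stayed uncalled, with limma adjusted p up to 0.186.

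Xcr1, the receptor for the chemokine Xcl1, lies on the minus strand at chr9:123852315-123862029 (ENSMUSG00000060509.4, GRCm38). It had 1.60, 1.52 and 1.36 TPM in Ndufa4l3-miR147 KO libraries, 2.83, 1.69 and 1.45 TPM in Ndufa4 KO libraries, and 1.77, 1.34 and 1.25 TPM in WT libraries. The 3 groups overlapped, and the single high value was that of the Ndufa4 KO library that was also highest for Clec9a. Xcr1 passed no comparison by limma: the log2 difference was 0.03 ± 0.18 for Ndufa4l3-miR147 KO against WT (95% interval -0.38 to 0.44), and 0.26 ± 0.18 for Ndufa4 KO against WT (95% interval -0.15 to 0.67, adjusted p = 0.393). For Ndufa4l3-miR147 KO against Ndufa4 KO it was -0.24 ± 0.18 (95% interval -0.65 to 0.18, limma adjusted p = 0.476). Without Ndufa4 KO replicate 1, the library with the high value, the difference of Ndufa4 KO from WT was 0.07 (limma adjusted p = 0.778) and that between the knockouts was -0.04. These intervals leave room for changes of up to about 0.67 on the log2 scale, so they do not show equal levels.

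Since Clec9a sits in a lectin gene cluster, its neighbours were examined, a step added after the values of Clec9a had been seen. Of the 5 genes kept by the filter on each side, 2 rose in Ndufa4 KO against WT and none fell, with log2 differences from -0.44 to 0.69 (8.59% of all genes tested were called). Clec7a, which encodes the beta-glucan receptor dectin-1 and lies 53 kb away, had 195, 186 and 135 TPM in Ndufa4 KO libraries, against 96.7, 110 and 107 TPM in WT libraries. The 3 Ndufa4 KO libraries lay above the WT libraries, with a log2 difference of 0.69 ± 0.13 (SE, limma adjusted p = 0.0132). Clec12a, an inhibitory lectin 66 kb away on the other side, had 575, 492 and 526 TPM in Ndufa4 KO libraries, against 442, 444 and 456 TPM in WT libraries. The Ndufa4 KO libraries again lay above the WT libraries, with a log2 difference of 0.25 ± 0.06 (SE, limma adjusted p = 0.0319). This call of Clec12a was lost in 10 of 19 alternatives (limma adjusted p up to 0.116). That of Clec7a against WT was lost in 3 of 19 (adjusted p up to 0.0632), among them without WT replicate 1 or 3. Clec7a was also lower in Ndufa4l3-miR147 KO, at 103, 100.1 and 95.1 TPM, than in Ndufa4 KO (log2 difference -0.76 ± 0.13, limma adjusted p = 0.0154), a call lost without any 1 library of Ndufa4l3-miR147 KO (adjusted p up to 0.0759). None of the 10 neighbours was called for Ndufa4l3-miR147 KO against WT. Over all 24 family relatives listed for the markers, 12 passed the filter, and Clec7a and Clec12a were the only ones called in any comparison.

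**Figure D2:**
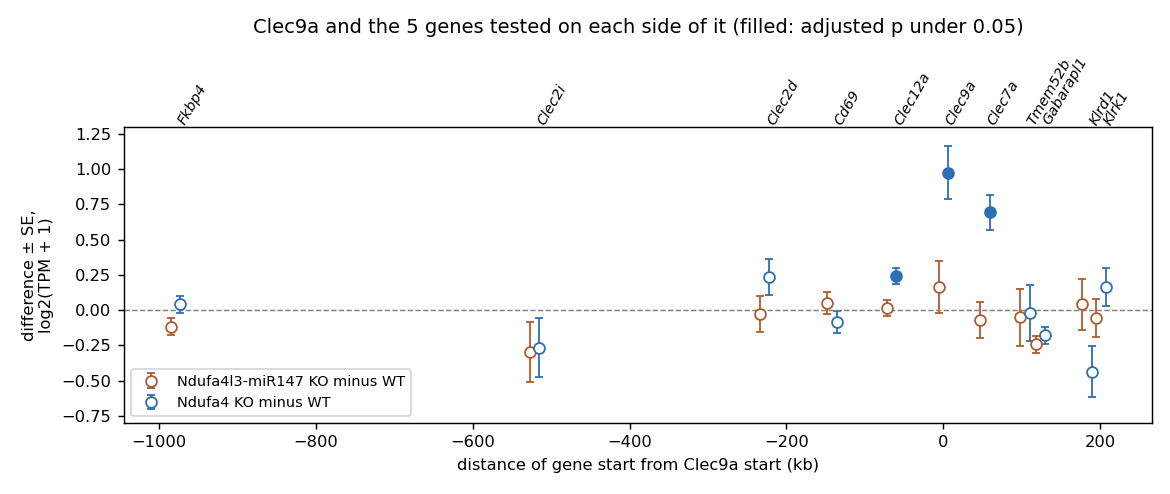
Log2 difference of Clec9a and its 10 nearest genes kept by the filter, placed by distance of their starts from that of Clec9a in kb, for each knockout against WT. Bars are 1 SE and filled points were called. In Ndufa4 KO against WT, Clec7a (0.69) and Clec12a (0.25) were called beside Clec9a (0.98), and the other 8 neighbours were not.

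The sequence just before the start of Clec9a is shown beside that of Clec7a because these neighbours were both higher in Ndufa4 KO. The RefSeq windows (GRCm38.p6) are chr6:129408612-129408861 on the plus strand for Clec9a and chr6:129472780-129473029 on the minus strand for Clec7a. Each is 250 bases long, 5′ to 3′, with motif matches in capitals.
Clec9a: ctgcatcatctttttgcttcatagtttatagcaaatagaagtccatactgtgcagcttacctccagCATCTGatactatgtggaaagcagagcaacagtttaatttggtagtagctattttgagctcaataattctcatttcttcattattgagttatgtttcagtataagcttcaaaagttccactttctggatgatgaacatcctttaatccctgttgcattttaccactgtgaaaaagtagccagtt
Clec7a: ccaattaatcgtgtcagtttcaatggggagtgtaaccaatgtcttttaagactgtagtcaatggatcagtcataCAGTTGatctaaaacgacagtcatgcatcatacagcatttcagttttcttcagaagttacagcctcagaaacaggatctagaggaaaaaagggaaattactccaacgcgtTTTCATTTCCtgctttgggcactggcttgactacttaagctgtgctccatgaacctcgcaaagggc
Both strands were searched for 5 motifs of factors that act in myeloid cells: the interferon-gamma-activated GAS site TTCNNNGAA, an ISRE-like site (GAAA and again GAAA with 2 bases between), the PU.1-IRF composite (GGAA and GAAA with 2 bases between), the AP-1 site TGANTCA and the E-box CANNTG that Tcf4 and related factors bind. The Clec9a window held 1 E-box, at -184 from the window's end, and none of the other 4. The Clec7a window held 1 E-box at -176 and 1 PU.1-IRF composite at -66. An E-box was present in 66.2% of all 32851 windows of 250 bases and the composite in 2.3%. A match is a description of the letters and not a bound site. The Clec9a window had 35.6% G and C and the Clec7a window had 42%.

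Of the transcription factors, Batf3 was lower in Ndufa4l3-miR147 KO than in Ndufa4 KO cells. Batf3 is an AP-1 family factor that pairs with Jun proteins and, with Irf8, maintains type 1 dendritic cells. It lies at chr1:191097847-191108945 on the plus strand (ENSMUSG00000026630.9, protein coding, GRCm38). Batf3 had 14.3, 17.3 and 18.6 TPM in Ndufa4l3-miR147 KO libraries, 22.7, 26.3 and 29.2 TPM in Ndufa4 KO libraries, and 24.6, 28.6 and 22.7 TPM in WT libraries. All 3 Ndufa4l3-miR147 KO libraries lay below the other 6 libraries, and those of Ndufa4 KO and WT overlapped. The means were 16.7 ± 2.18 TPM in Ndufa4l3-miR147 KO, 26.1 ± 3.27 TPM in Ndufa4 KO and 25.3 ± 3.01 TPM in WT (SD, n = 3 each).

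Against Ndufa4 KO, the log2 difference of Batf3 in Ndufa4l3-miR147 KO was -0.61 ± 0.13 (SE, 95% interval -0.90 to -0.32, limma adjusted p = 0.0382), a ratio of mean TPM of 0.643. This call was lost under 11 of 19 alternatives, among them leaving out each WT library (limma adjusted p = 0.0772, 0.0578 and 0.0616), each Ndufa4l3-miR147 KO library (0.138, 0.117 and 0.0794) or the second Ndufa4 KO library (0.0658). The sign stayed the same in all of them. Against WT, the log2 difference of Ndufa4l3-miR147 KO was of similar size, -0.57 ± 0.13 (SE, 95% interval -0.86 to -0.28), but its limma adjusted p of 0.153 missed the threshold. It passed only in a fit of the 6 libraries of that comparison (adjusted p = 0.0486). Between Ndufa4 KO and WT it was 0.04 ± 0.13 (95% interval -0.25 to 0.33, limma adjusted p = 0.859). Of the 10 nearest genes kept, none was called in either knockout against WT. Atf3, another AP-1 family factor 72 kb away, was higher in Ndufa4l3-miR147 KO than in Ndufa4 KO (log2 difference 0.28 ± 0.05, limma adjusted p = 0.023).

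The Batf3 window is shown because this gene gave the other call among the markers. It is chr1:191098164-191098324 on the plus strand (RefSeq, GRCm38.p6), 161 bases 5′ to 3′ with motif matches in capitals, and 73.3% of it is G or C. It lies before the RefSeq start of the gene but inside the longer interval that GENCODE gives above, and it was cut to end before the start of the first coding transcript of GENCODE.
Batf3: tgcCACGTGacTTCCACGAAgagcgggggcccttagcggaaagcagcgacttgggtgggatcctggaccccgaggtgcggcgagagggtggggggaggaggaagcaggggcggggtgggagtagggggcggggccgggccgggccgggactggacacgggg
It held 1 GAS letter match at -150 and 1 E-box at -158 from the window's end, and none of the other 3 motifs. In windows cut to 161 bases, GAS matches were found in 4.75% and an E-box in 51.7% of all 32851.

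Tcf4, an E protein that binds E-boxes, had 19.2, 18.8 and 20.2 TPM in Ndufa4l3-miR147 KO libraries, 17.1, 14.6 and 14.3 TPM in Ndufa4 KO libraries, and 20.6, 17.7 and 18.2 TPM in WT libraries. The Ndufa4 KO libraries lay below the other 6 without overlap, and those of Ndufa4l3-miR147 KO and WT overlapped. Means were 19.4 ± 0.720 TPM in Ndufa4l3-miR147 KO, 15.3 ± 1.54 TPM in Ndufa4 KO and 18.8 ± 1.56 TPM in WT (SD, n = 3 each). No comparison of Tcf4 passed: the log2 difference was 0.05 ± 0.09 for Ndufa4l3-miR147 KO against WT (95% interval -0.16 to 0.25). It was -0.28 ± 0.09 for Ndufa4 KO against WT (95% interval -0.48 to -0.08, limma adjusted p = 0.0883), and 0.33 ± 0.09 for Ndufa4l3-miR147 KO against Ndufa4 KO (95% interval 0.12 to 0.53, adjusted p = 0.0913). Without the first Ndufa4 KO library both of these passed (limma adjusted p = 0.0355 and 0.0426).

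**Figure D3:**
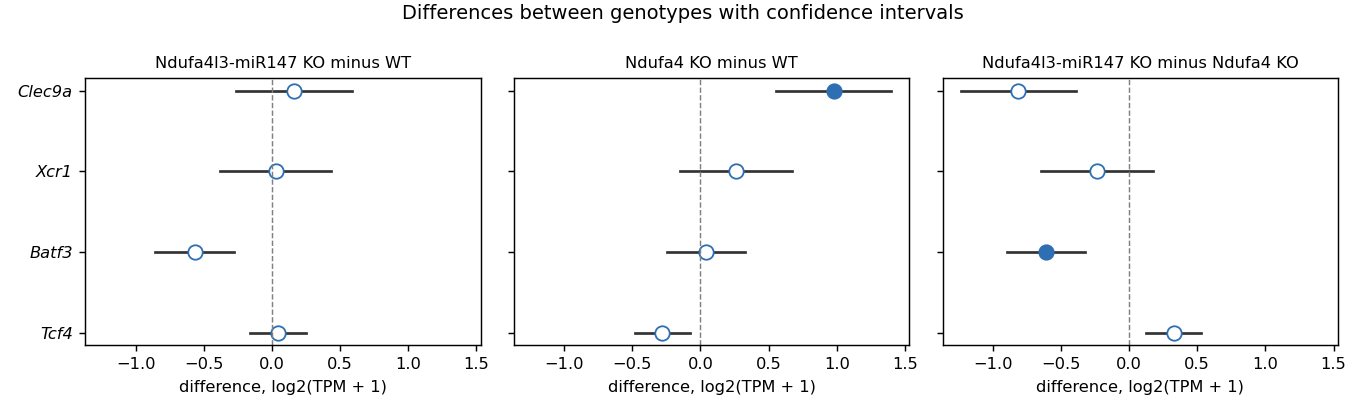
Log2 difference in TPM + 1 of the 4 tested markers in the 3 comparisons, with 95% intervals from limma and filled points where called. The called differences are Clec9a in Ndufa4 KO against WT (0.98) and Batf3 in Ndufa4l3-miR147 KO against Ndufa4 KO (-0.61).

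Clec9a and Batf3 accompany each other in type 1 dendritic cells, so their ratio was compared between the genotypes, a step added after their values had been seen. The ratio of Clec9a to Batf3 TPM was 2.30, 1.68 and 1.52 in Ndufa4l3-miR147 KO libraries, 3.24, 2.03 and 1.33 in Ndufa4 KO libraries, and 1.03, 0.968 and 1.20 in WT libraries. Each knockout library had a higher ratio than each WT library, and the knockouts overlapped each other. The mean log2 ratio differed from WT by 0.77 in Ndufa4l3-miR147 KO and by 0.96 in Ndufa4 KO, and by -0.19 between Ndufa4l3-miR147 KO and Ndufa4 KO. Since the ratio was formed from values already described, it is given as a description with no test.

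Across the 9 libraries, which share the 3 genotypes and the tilt of Ndufa4 KO replicate 3, log2(TPM + 1) of Clec9a and Xcr1 had a Pearson r of 0.791 and a Spearman rho of 0.483, and r was 0.795 within genotypes, after subtraction of each genotype's mean. Tcf4 and Xcr1 had r = -0.097 over all libraries and 0.851 within genotypes. Clec9a and Batf3 had r = 0.185 over all libraries and -0.676 within genotypes. Clec9a and Tcf4 had r = -0.607 over all libraries and 0.534 within genotypes. The 4 markers that passed the filter thus gave pairs with positive and pairs with negative r. The sum of all 8 markers was 67.8 to 68.9 TPM in Ndufa4l3-miR147 KO, 84.2 to 116 TPM in Ndufa4 KO and 70.0 to 75.9 TPM in WT libraries, and most of it was Clec9a, Batf3 and Tcf4.

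The remaining 4 markers never reached 1 TPM. Zbtb46 (chr2:181387762-181459426, minus strand, ENSMUSG00000027583.13, GRCm38) had 0.205, 0.300 and 0.134 TPM in Ndufa4l3-miR147 KO, 0.141, 0.253 and 0.0884 TPM in Ndufa4 KO, and 0.116, 0.174 and 0.108 TPM in WT. Flt3 (chr5:147330741-147400489, minus strand, ENSMUSG00000042817.15) had 0.0245, 0.0543 and 0.0725 TPM in Ndufa4l3-miR147 KO, 0.0638, 0.0585 and 0.0319 TPM in Ndufa4 KO, and 0.0367, 0.0529 and 0.0128 TPM in WT. For both genes all 3 groups overlapped, so this pair gave no separation of the genotypes at these levels. The exact permutation p was 0.2 for Zbtb46 and 0.4 for Flt3 in Ndufa4l3-miR147 KO against WT, 0.7 and 0.3 in Ndufa4 KO against WT, and 0.5 and 1 between the knockouts.

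Ccr7 (chr11:99144196-99155077, minus strand, ENSMUSG00000037944.8) had 0.515, 0.725 and 0.184 TPM in Ndufa4l3-miR147 KO, 0.194, 0.231 and 0.498 TPM in Ndufa4 KO, and 0.482, 0.415 and 0.699 TPM in WT. The groups overlapped, with exact permutation p of 0.9 for Ndufa4l3-miR147 KO against WT, 0.3 for Ndufa4 KO against WT and 0.5 between the knockouts. Cd209a (chr8:3743397-3748984, minus strand, ENSMUSG00000031494.7) was listed at 0 in 7 of the 9 libraries, with 0.0626 TPM in the first Ndufa4l3-miR147 KO library and 0.0382 TPM in the first WT library. It belongs to a family of similar lectin genes that can share reads, so even these traces are uncertain. TPM keep no read depth, so no counting limit can be given for these 4 genes.

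The ligands of the receptors were low as well. Of 7 ligands and growth factors listed for the markers, 2 passed the filter and neither was called in any comparison. Flt3l, the Flt3 ligand, averaged 4.80 ± 1.04 TPM in Ndufa4l3-miR147 KO, 5.37 ± 0.745 TPM in Ndufa4 KO and 4.57 ± 2.0 TPM in WT (SD, n = 3 each). Xcl1, the ligand of Xcr1, was listed at 0 in 8 of 9 libraries, and so was Ccl19, a ligand of Ccr7 (both chosen after their values were seen).

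A list of 17 partners and regulators of the markers held dimer partners and inhibitors of Batf3 and Tcf4, the kinase Syk and receptors for colony-stimulating factors, and 16 passed the filter. For Ndufa4l3-miR147 KO against WT 2 rose and none fell (median 0.104, against 0.001 for all genes tested, of which 0.431% were called). For Ndufa4 KO against WT 5 rose and 1 fell (median 0.073, against -0.076 for all genes tested, of which 8.59% were called), and between the knockouts none was called. Left-out libraries moved these counts: in the first comparison the 2 calls became 0 without any 1 library of Ndufa4l3-miR147 KO or WT, and in the second the 6 became 1 or 2 under the same omissions. Id1, which encodes an inhibitor of E proteins such as Tcf4, rose in both knockouts, with 83.2 TPM on average in Ndufa4l3-miR147 KO, 109 TPM in Ndufa4 KO and 53.6 TPM in WT. Its log2 difference from WT was 0.62 ± 0.10 in Ndufa4l3-miR147 KO (limma adjusted p = 0.038) and 0.999 ± 0.10 in Ndufa4 KO (adjusted p = 0.00103). Id3, an inhibitor of the same kind, rose by 0.41 (limma adjusted p = 0.0254) and by 0.27 (adjusted p = 0.0291) on the log2 scale. Jun, a dimer partner of Batf3, rose by 0.23 in Ndufa4 KO (limma adjusted p = 0.0294), and Syk, the kinase that signals below Clec9a and Clec7a, fell by 0.20 (adjusted p = 0.0405). Irf8, the partner factor of Batf3 in type 1 dendritic cells and also a macrophage gene, stood at 532 to 612 TPM over the 9 libraries and was not called. Batf2, a close relative of Batf3, stood at 168 to 186 TPM, and Batf at 7.94 to 13.6 TPM (these 3 were chosen after their values were seen).

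Among other genes of type 1 dendritic cells, 12 of 19 listed passed the filter. In Ndufa4 KO against WT 4 rose and none fell (median 0.099, against -0.076 for all genes tested, of which 8.59% were called and 2.83% were higher), for Ndufa4l3-miR147 KO against WT 1 fell (median -0.019, against 0.001), and for Ndufa4l3-miR147 KO against Ndufa4 KO 2 fell (median 0.014, against 0.074). Over all genes tested, 0.189% were called lower in Ndufa4l3-miR147 KO against WT and 1.04% between the knockouts. Tlr11, a sensor of profilin and flagellin, rose to 4.61 TPM in Ndufa4 KO, against 2.15 TPM in WT (log2 difference 0.83 ± 0.14, limma adjusted p = 0.0091). Naaa, a lysosomal amidase, averaged 316 TPM in Ndufa4 KO and 208 TPM in WT (0.59 ± 0.10, limma adjusted p = 0.0119). Rab7b, listed as 5430435G22Rik, is a small GTPase of late endosomes. It averaged 115 ± 10.2 TPM in Ndufa4l3-miR147 KO, 275 ± 12.7 TPM in Ndufa4 KO and 208 ± 6.53 TPM in WT (SD, n = 3 each). Its log2 difference from WT was -0.85 ± 0.07 in Ndufa4l3-miR147 KO (limma adjusted p = 9.9e-04) and 0.40 ± 0.07 in Ndufa4 KO (adjusted p = 0.0104). Rab7b was thus the 1 gene of this list called in Ndufa4l3-miR147 KO against WT. Its neighbours on the chromosome were not examined, so whether a wider segment changed with it was not tested. Id2, a factor that type 1 dendritic cells need, rose by 0.34 in Ndufa4 KO (limma adjusted p = 0.045; named after its values were seen). Leaving out WT replicate 1, 2 or 3 lowered the 4 calls to 2, 1 and 2. Between the knockouts the 2 calls became 1 without Ndufa4l3-miR147 KO replicate 2 or 3 and 4 without Ndufa4 KO replicate 3. The list summed to 1707 to 1763 TPM in Ndufa4l3-miR147 KO, 1871 to 2143 TPM in Ndufa4 KO and 1765 to 1825 TPM in WT. Naaa, Rab7b, Id2 and Tlr11 are not restricted to dendritic cells. Of the same list, Itgae and Cd8a stayed at or below 0.261 and 0.585 TPM in every library, and Cd8a is also on the T and NK cell list. Cadm1 and Wdfy4 stood at 121 to 200 and 28.8 to 60.1 TPM (these 4 were chosen after their values were seen). The lowest value of Cadm1 and that of Wdfy4 came from the third Ndufa4 KO library.

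The shared conventional dendritic cell genes had no common direction. Of 24 listed, 14 passed the filter. None was called for Ndufa4l3-miR147 KO against WT, for Ndufa4 KO against WT 2 rose and 2 fell, and for Ndufa4l3-miR147 KO against Ndufa4 KO 2 rose and 2 fell. Over all genes tested, 0.431%, 8.59% and 3.24% were called in these 3 comparisons. The 4 calls between the knockouts became 2 without Ndufa4l3-miR147 KO replicate 1 or 3. The medians of the list were -0.017, -0.080 and 0.029, against 0.001, -0.076 and 0.074 for all genes tested. Itgax, which encodes CD11c, averaged 7.63 ± 0.762 TPM in Ndufa4 KO and 3.27 ± 0.0386 TPM in WT (SD, n = 3 each), a log2 difference of 1.01 ± 0.11 (limma adjusted p = 0.00122). In Ndufa4l3-miR147 KO it averaged 4.37 ± 0.469 TPM. The list summed to 1149 to 1171 TPM in Ndufa4l3-miR147 KO, 1050 to 1118 TPM in Ndufa4 KO and 1139 to 1151 TPM in WT. Ass1, an enzyme of arginine synthesis, rose by 0.51 in Ndufa4 KO (limma adjusted p = 0.00156), Hmgn3 fell by 0.33 (adjusted p = 0.0088) and Nav1 fell by 0.62 (adjusted p = 0.012).

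Type 2 dendritic cell genes gave 6 of 13 that passed the filter, of which 2 rose in Ndufa4 KO against WT, Relb by 0.43 on the log2 scale (limma adjusted p = 0.0173) and Clec12a, described above. None was called in the other comparisons, and the median was -0.222 in Ndufa4 KO against WT, lower than the -0.076 of all genes tested although both calls were upward. Those 2 calls became 0 or 1 without any 1 library of Ndufa4l3-miR147 KO or WT. The list median lay between Sirpa (-0.224) and Klf4 (-0.220), both lowest in the third Ndufa4 KO library (chosen after their values were seen). No list median was taken without that library. In Ndufa4 KO against WT 8.59% of all genes tested were called (2.83% higher, 5.76% lower), and between the knockouts 3.24%. These shares also apply to the plasmacytoid and mature lists below. Plasmacytoid genes gave 7 of 14 that passed, and here 2 fell in Ndufa4 KO against WT. These were Irf7 (by 0.38, limma adjusted p = 0.0071) and Bst2 (by 0.34, adjusted p = 0.0307, lost in 11 of 19 alternatives with adjusted p up to 0.145), both also interferon-induced genes of macrophages, while Siglech, the more restricted plasmacytoid lectin, stayed at or below 0.263 TPM (chosen after its values were seen). Irf7 and Bst2 were also higher in Ndufa4l3-miR147 KO than in Ndufa4 KO, where Bst2 lost its call without any 1 library of Ndufa4l3-miR147 KO (limma adjusted p up to 0.0663), and no plasmacytoid gene was called for Ndufa4l3-miR147 KO against WT. Of 23 genes of mature dendritic cells, 16 passed. For Ndufa4 KO against WT the costimulatory genes Cd40 and Cd86 rose (by 0.31 and 0.36, limma adjusted p = 0.0381 and 0.0416) and Cd83 fell by 0.32 (adjusted p = 0.0159). Ccl22, a chemokine of mature dendritic cells, was the only one called between the knockouts (log2 difference -0.67, limma adjusted p = 0.0445). It had 0.607, 0.463 and 0.268 TPM in Ndufa4l3-miR147 KO, 1.473, 1.255 and 1.167 TPM in Ndufa4 KO, and 0.562, 0.605 and 0.701 TPM in WT. Ccl22 thus passed the filter only through the group where it was high, so its call is not independent of the filter. The call of Ccl22 was also lost in 12 of 19 alternatives, with adjusted p up to 0.157, among them leaving out each one of the 9 libraries. None of the mature dendritic cell genes was called for Ndufa4l3-miR147 KO against WT. Without any 1 WT library the 3 calls in Ndufa4 KO against WT became 0.

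MHC class II genes, which both dendritic cells and interferon-gamma-treated macrophages express, rose in part in Ndufa4 KO against WT. All 10 listed passed the filter, of which 4 rose, none fell and 6 were not called (median 0.400, against -0.076 for all genes tested, of which 2.83% were called higher and 5.76% lower). H2-Aa rose by 0.67 (limma adjusted p = 9.3e-04), and H2-Ab1 by 0.51, Cd74 by 0.43 and H2-DMb1 by 0.37 on the log2 scale. Of those not called, H2-Eb1, H2-DMb2, H2-DMa and H2-Ob had differences of 0.56, 0.54, 0.23 and 0.06, and the regulator Ciita and H2-Oa had -0.08 and -0.47. H2-Oa reached 1 TPM only in WT (1.041, 1.398 and 1.027 TPM), so it passed the filter only through that group. The summed level of the list was 1524 to 1529 TPM in Ndufa4l3-miR147 KO, 2106 to 2363 TPM in Ndufa4 KO and 1554 to 1666 TPM in WT. The same 4 genes were called lower in Ndufa4l3-miR147 KO than in Ndufa4 KO, and none was called in Ndufa4l3-miR147 KO against WT. Between the knockouts 1.04% of all genes tested were called lower.

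**Figure D4:**
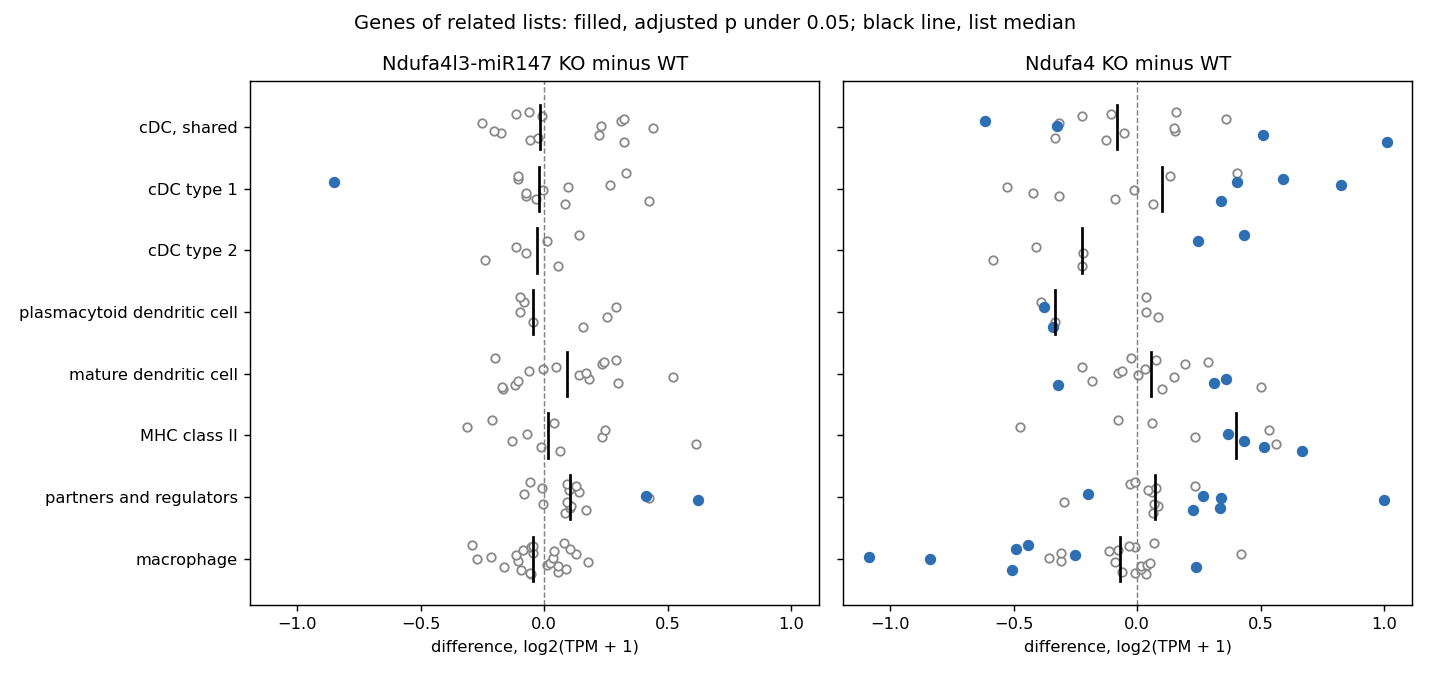
Log2 differences of the genes kept by the filter in each related list, for each knockout against WT. Points are genes, filled where called, vertical black lines are list medians and the dashed line is 0. The median of the MHC class II genes was 0.400 in Ndufa4 KO against WT and that of the shared conventional dendritic cell genes was -0.080.

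All 24 macrophage markers listed passed the filter. In Ndufa4 KO against WT 1 rose and 6 fell, with a median of -0.070, against -0.076 for all genes tested, of which 2.83% were called higher and 5.76% lower. Without WT replicate 1, 2 or 3 these 7 calls became 1, 1 and 2. For Ndufa4l3-miR147 KO against WT none was called. In Ndufa4 KO against WT, Cd14 fell by 0.84 (limma adjusted p = 3.3e-04), Tlr7 by 1.08 (adjusted p = 0.0193) and Siglec1 by 0.49 (adjusted p = 0.02). Lyz2, the macrophage lysozyme, rose by 0.24 in that comparison (limma adjusted p = 0.0112). Tlr7 and Siglec1 were lowest in the third Ndufa4 KO library, at 21.0 and 35.5 TPM. With 1 library left out, their differences ran from -1.305 to -0.795 and from -0.563 to -0.357. After quantile normalization the difference of Lyz2 was 0.0739 and the call was lost (limma adjusted p = 0.289). For Ndufa4l3-miR147 KO against Ndufa4 KO, Cd14 and Siglec1 were called higher (0.57 and 0.60, limma adjusted p = 0.00146 and 0.016). Lyz2 was called lower (-0.40, limma adjusted p = 0.00171). Over all genes tested, 2.2% were called higher and 1.04% lower between the knockouts. Siglec1 lost this call in 4 of 19 alternatives. The list summed to 25060 to 25420 TPM in Ndufa4l3-miR147 KO, 25580 to 27900 TPM in Ndufa4 KO and 25560 to 25880 TPM in WT.

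Of the other cell types, no gene of the monocyte (5 of 6 kept), neutrophil (8 of 12), T and NK cell (2 of 13), progenitor (2 of 5) and stromal (4 of 8) lists was called in any comparison. The T and NK cell list summed to 4.01 to 5.90 TPM in Ndufa4l3-miR147 KO, 4.05 to 5.75 TPM in Ndufa4 KO and 4.85 to 5.29 TPM in WT, with 2 of its 13 genes at 0 in every library. Of the B and plasma cell list 1 of 10 genes was kept. This gene, Ighm, averaged 27.9 TPM in Ndufa4l3-miR147 KO, 28.7 TPM in Ndufa4 KO and 44.2 TPM in WT, and it was lower in both knockouts than in WT (log2 difference -0.65, limma adjusted p = 0.0041, and -0.61, adjusted p = 0.0014). Of the mast, basophil, erythroid and platelet list 3 of 10 were kept, and Pf4 fell by 0.33 in Ndufa4 KO against WT (limma adjusted p = 0.0281). Pf4 was also higher in Ndufa4l3-miR147 KO than in Ndufa4 KO by 0.33 (limma adjusted p = 0.046), a call lost in 14 of 19 alternatives. The B and plasma cell list summed to 28.2 to 30.0 TPM in Ndufa4l3-miR147 KO, 27.8 to 31.9 TPM in Ndufa4 KO and 44.2 to 46.3 TPM in WT. The monocyte list summed to 64.4 to 70.4, 49.7 to 66.5 and 65.6 to 73.7 TPM in Ndufa4l3-miR147 KO, Ndufa4 KO and WT, and the progenitor list to 1375 to 1579, 1366 to 1707 and 1443 to 1519 TPM. Nearly all of the progenitor sum was 1 gene, Ly6a, at 1372 to 1575, 1363 to 1705 and 1440 to 1516 TPM in these groups. Cd34, the other progenitor gene kept, averaged 2.69, 1.57 and 2.51 TPM. The mast, basophil, erythroid and platelet list summed to 126 to 173 TPM in Ndufa4l3-miR147 KO, 81.9 to 120 TPM in Ndufa4 KO and 108 to 240 TPM in WT. The stromal list ranged from 36.2 to 45.0 TPM in Ndufa4l3-miR147 KO, 6.21 to 130 TPM in Ndufa4 KO and 7.97 to 45.3 TPM in WT, and the neutrophil list from 50.5 to 87.6, 13.3 to 53.1 and 14.3 to 95.0 TPM in the same groups. The part of these cell types in the differences of Clec9a and Batf3 was not tested.

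Of the 30 genes named from these lists and called in Ndufa4 KO against WT, 11 kept their call in all alternatives tried, namely Ass1, Cd14, Cd74, H2-Aa, H2-Ab1, H2-DMb1, Id1, Ighm, Irf7, Itgax and Tlr11. The other 19 lost it when at least 1 library was left out (limma adjusted p up to 0.151). Between the knockouts 9 of 18 kept their call, namely 5430435G22Rik, Cd14, Cd74, H2-Aa, H2-Ab1, Hmgn3, Irf7, Lyz2 and Nav1, and for Ndufa4l3-miR147 KO against WT 2 of 4, which were 5430435G22Rik and Ighm.

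Finally, the genes whose pattern over the 9 libraries was most like each marker were found by the Pearson r of log2(TPM + 1), given as a description. For Clec9a they were Lpl (lipoprotein lipase, 0.982), Antxr2 (an anthrax toxin receptor, 0.978) and Psat1 (an enzyme of serine synthesis, 0.978). Lpl averaged 1155 ± 30.1 TPM in Ndufa4l3-miR147 KO, 1398 ± 117 TPM in Ndufa4 KO and 1106 ± 16.6 TPM in WT (SD, n = 3 each). Because it was picked for its likeness to Clec9a over these libraries, its difference is not tested here. For Batf3 they were Capn1 (0.945), BC037034 (0.936) and Mul1 (0.919), for Tcf4 Rbbp9 (0.974), Napb (0.972) and Gm14446 (0.968), and for Xcr1 Fopnl (0.978), Slc16a1 (0.937) and Skp1a (0.934). No marker was among the 3 nearest genes of another marker.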

How the data were processed

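Values were TPM in 1 table deposited by the authors. The builds mm10 and GRCm39 and the tools kallisto, edgeR and DESeq2 are named in the submitters' processing notes, without roles or versions. No annotation is given in the sources used here. TPM of named genes summed to 913474 to 921678 in a library, so 7.83% to 8.65% lay outside the table, and depth is unknown. Because TPM are shares, a gain in abundant genes lowers the others. From the table, log2(TPM + 1) was fitted with limma 3.58.1 in R 4.3.3 (1 mean per genotype, intensity trend, two-sided, Benjamini-Hochberg over 11133 genes), where the pseudocount understates changes of low genes. Markers under the filter got exact two-sided permutation tests. The procedure was tested on simulated data. An unnamed entry (up to 0.00303% of the total) was dropped. The members and lists were chosen with earlier results of these data known. Named genes were up to 3 called per list, comparison and direction, else the 2 most abundant. All 224 list genes were found, 7 by a synonym. Gene positions come from GENCODE M21. Alternatives covered pseudocount, filter, scaling, spread, block, length and left-out libraries.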

Additional observations from a re-analysis of the deposited data

How the results depend on the processing

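The rise of Clec9a in Ndufa4 KO against WT kept its sign in all 19 alternatives (0.75 to 1.20 on the log2 scale) and lost its call in 4, and the fall of Batf3 between the knockouts lost its call in 11 of 19. For Ndufa4l3-miR147 KO against WT, 48 genes were called, against 306 from the 6 libraries alone (1 of them a marker), 30 without a variance trend and 24 with the replicate block, and 13 to 198 when a library was left out (0 markers each time). For Ndufa4 KO against WT, 956 were called, against 238 from the 6 libraries alone (0 markers) and 661 with the block (1 marker), and 266 to 1586 with a library left out (0 to 2 markers). For Ndufa4l3-miR147 KO against Ndufa4 KO, 361 were called, against 64 from the 6 libraries alone and 162 with the block, and 82 to 740 with a library left out (0 to 2 markers). In that comparison 1 marker was called, against 0 without the filter, from 6 libraries, without a variance trend or with the block, and 2 with median-of-ratios or quantile scaling. Replicate numbers gave no clear pairing of the libraries. Same-numbered libraries of different genotypes had correlations of -0.138 to 0.179, against -0.164 to 0.132 for differently numbered ones. The highest, 0.179, was between the first libraries of the knockouts. Signs turned for differences near 0. Xcr1 in Ndufa4l3-miR147 KO against WT gave -0.001 with quantile scaling and -0.0316 to 0.117 with a library left out. With a library left out, Ccr7 gave -0.190 to 0.082 and Cd209a -0.018 to 0.0292 in that comparison, Batf3 -0.0407 to 0.135 and Zbtb46 -0.0229 to 0.0787 in Ndufa4 KO against WT, and Flt3 -0.0166 to 0.0164 between the knockouts. Of the values of single named genes under the alternatives, 1139 kept their sign and side of the threshold, 223 lost a call, 6 gained one and 13 turned sign. The causes were not tested. Signal near 0 limits the 4 low markers, and the unknown depth limits all.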
